A study of Bos taurus with 92 samples.

Results

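Transcripts of the proteasome and of the ubiquitin pathway were measured in bovine blastocysts taken singly and in cells used as nuclear donors. The genes were chosen by symbol: proteasome genes (PSMA to PSMG), ubiquitin-activating, conjugating and ligating enzymes (UBA, UBE), cullins (CUL), F-box proteins (FBXL, FBXO, FBXW), ubiquilins (UBQLN) and deubiquitinases (USP, OTU), without PSME3IP1. The choice took in 116 of 8208 probes and 93 of 4452 named genes. They comprise 22 subunits of the proteasome, 65 ubiquitin enzymes and 6 genes of neither class, which are the activators PSME1 and PSME4, the inhibitor PSMF1, the assembly chaperones PSMG1 and PSMG4, and the shuttle UBQLN4. The subunits were counted by symbol and so include PSMD5 and PSMD9, which are known as assembly chaperones of the 19S base. Of the 93 genes 92 had enough values to be tested, and the catalytic subunit PSMB7 did not.

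The proteasome is the protease that breaks down proteins tagged with ubiquitin. Its 20S core is a barrel of alpha rings and beta rings, the beta rings hold the cutting sites, and the 19S regulator at its ends binds, unfolds and feeds in the tagged protein. Ubiquitin is attached in a relay of an activating enzyme (E1), a conjugating enzyme (E2) and a ligase (E3), where many ligases are assemblies of a cullin with an F-box protein that picks the substrate, and deubiquitinases take ubiquitin off again. In early embryos the pathway is known for clearing maternal proteins inherited from the oocyte.

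The embryos were 14 blastocysts from artificial insemination (AI), 15 from in vitro fertilisation (IVF) and 15 from nuclear transfer (NT, in which the nucleus of a somatic donor cell is placed into an oocyte). The other 2 samples were donor cells, whose cell type, passage and culture the labels do not name. The labels give no breed, age or sex of the animals, no embryo day and no date or batch. An H stands, unexplained, before the numbers of 3 AI embryos, as does 2_ before those of 8 NT embryos and 3_ before those of the other 7. Every sample was set against a common reference RNA, of unnamed composition, on 2 arrays with exchanged dyes. A level is the log2 ratio of sample to reference, centred on the median spot of its array, so that it is relative to the other transcripts of that sample, and levels of different genes are not compared. The files do not state the direction of the ratio. Cy5 over Cy3 was taken as the likely reading, and all directions rest on it.

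Between both arrays of a sample, turned the same way, r was 0.548 to 0.730 in AI, 0.559 to 0.764 in IVF and 0.638 to 0.703 in NT embryos, but only 0.248 to 0.325 in the donor cells. IVF embryos 11 and 1 were the least like the other IVF embryos (median r of 0.697 and 0.721, against 0.756 to 0.840 in the other 13). The mean level of 16 trophectoderm markers was 1.38 to 2.21 in AI, 1.30 to 2.01 in IVF and 0.67 to 1.74 in NT embryos, against -0.24 and -0.08 in the donor cells. The mean of 11 fibroblast and matrix markers was -2.49 to -1.55 in the embryos and 0.90 and 0.95 in the donor cells. Differences are first group minus second, with the standard error of the limma fit over all 4398 genes, and a gene is called at an adjusted p under 0.05. RNA was taken from whole embryos, so that fewer cells of a type and less RNA per cell cannot be told apart.

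Most of the proteasome subunits that passed the threshold were lower in IVF embryos than in AI or NT embryos, while the ubiquitin enzymes went both ways. Between IVF and AI embryos 10 of 21 tested subunits were called, 1 higher and 9 lower in IVF, where 29.5% of all genes were called, 13.9% higher and 15.6% lower. Of the 65 enzymes 12 were called, 8 higher and 4 lower. Between NT and IVF embryos 9 subunits were called, 8 higher and 1 lower in NT, against 24.2% of all genes (13.9% higher, 10.3% lower), and of the enzymes 5 were higher and 7 lower. Between NT and AI embryos 3 subunits (2 higher, 1 lower) and 2 enzymes (1 higher, 1 lower) were called, against 8.07% of all genes (3.8% higher, 4.27% lower). The first and second of these comparisons share the IVF embryos. Without IVF embryos 1 and 11, 10 subunits (1 higher, 9 lower) and 12 enzymes (9 higher, 3 lower) were called for IVF minus AI. For NT minus IVF 8 subunits (7 higher, 1 lower) and 10 enzymes (4 higher, 6 lower) were called. Over all 4398 genes the same fits called 1224 (582 higher, 642 lower) and 1006 (570 higher, 436 lower).

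The median difference of the 21 subunits was -0.06 for IVF minus AI, 0.16 for NT minus IVF and -0.00 for NT minus AI, and that of the 65 enzymes 0.14, -0.03 and 0.06. Over all 4398 genes these medians were 0.03, -0.00 and 0.03. The lowest of the 3 embryo means lay in IVF for 9 of 21 subunits (42.9%) and 19 of 65 enzymes (29.2%), against 36.2% of all genes. The highest lay in IVF for 6 subunits (28.6%) and 32 enzymes (49.2%), against 39.1% of all genes. With the arrays as deposited, without centring, the median of all genes moved to 0.44 for NT minus AI and to 0.38 for NT minus IVF. The subunits then split into 8 higher and 0 lower for NT minus AI, 12 higher and 0 lower for NT minus IVF and 1 higher and 5 lower for IVF minus AI. The enzymes likewise split into 35 higher and 0 lower, 22 higher and 0 lower, and 4 higher and 3 lower. Over all genes the same setting called 1978 higher and 19 lower, 1710 higher and 45 lower, and 344 higher and 354 lower. The direction of single genes in NT embryos is therefore relative to the median transcript.

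**Figure D1:**
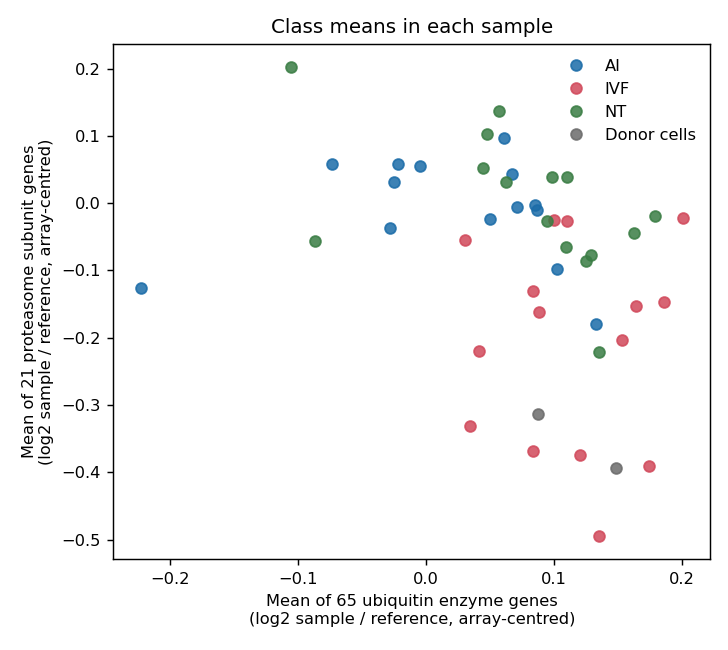
Mean level of the 65 ubiquitin enzyme genes (x axis, log2 of sample over reference, array-centred) against that of the 21 tested proteasome subunit genes (y axis, same scale), 1 point per sample. On the y axis the 15 IVF embryos run from -0.49 to -0.02 and overlap with the 14 AI embryos (-0.18 to 0.10) and the 15 NT embryos (-0.22 to 0.20), while the 2 donor cell samples lie at -0.39 and -0.31.

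Averaged over the 21 subunits, the level per embryo was -0.01 ± 0.08 (SD, n = 14) in AI, -0.21 ± 0.15 (SD, n = 15) in IVF and 0.00 ± 0.10 (SD, n = 15) in NT embryos. The plot of class means in each sample shows the IVF embryos spread towards low subunit levels, with overlap between all 3 kinds. The mean of the 65 enzymes was 0.02 ± 0.09 in AI, 0.11 ± 0.05 in IVF and 0.08 ± 0.08 in NT embryos (SD, same n). IVF embryos 7, 11, 1, 6 and 19 had the lowest subunit means, from -0.49 to -0.33. Embryos 11, 1, 19 and 7 were also the IVF embryos least like the others (median r of 0.697, 0.721, 0.756 and 0.773). Embryo 6 had a median r of 0.819. The fits without IVF embryos 1 and 11 kept embryos 19 and 7. Whether this likeness bears on the subunit level was not tested.

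**Figure D2:**
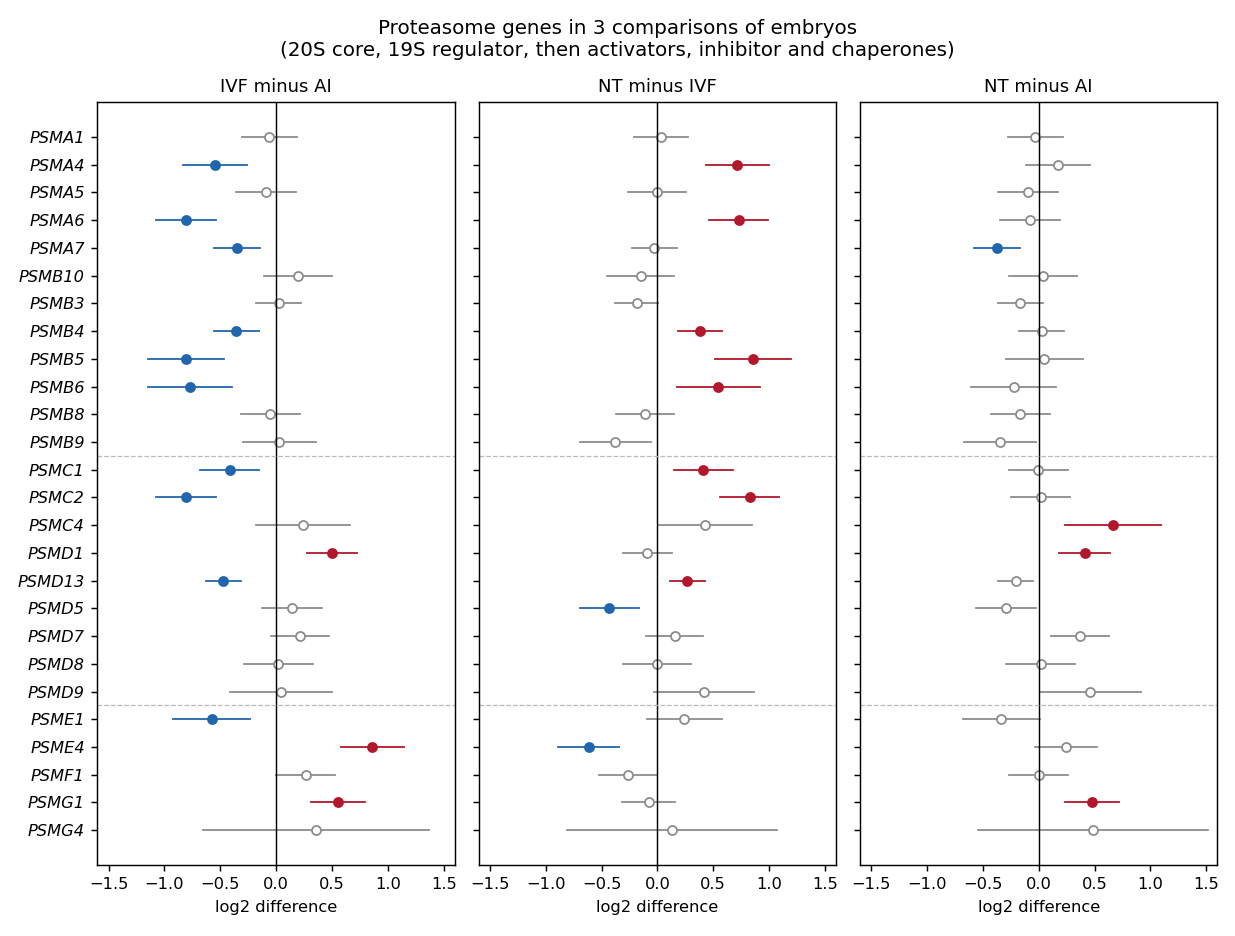
Difference in level (x axis, log2; point) with its 95% confidence interval (line) for the 26 tested proteasome genes, in IVF minus AI, NT minus IVF and NT minus AI. Filled points passed the limma threshold, in red where higher and blue where lower in the first group. Dashed lines part the 20S core, the 19S regulator, and the activators, inhibitor and chaperones. In the left panel 9 subunits and PSME1 are blue, and in the middle panel 8 subunits are red.

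In the 20S core 6 of 12 subunits fell and 0 rose in IVF against AI embryos (50% called, beside 29.5% of all genes). The median difference of the 12 was -0.22 (all genes 0.03). PSMA6, an alpha subunit, ran from -0.92 to 0.16 in AI embryos with a median of -0.09. In IVF embryos it ran from -1.65 to -0.44 (median -0.95) and in NT embryos from -0.90 to 0.32 (median -0.14). IVF embryos were low as a group, and their range overlapped with those of both other kinds. The difference was -0.80 ± 0.13 for IVF minus AI (adjusted p = 8.64e-06, with 15 of 15 IVF embryos under the mean of AI), a 1.75-fold change, and -0.08 ± 0.13 for NT minus AI (adjusted p = 0.777).

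PSMA4, also of the alpha ring, lay at -0.97 to 1.14 (median 0.46) in AI, -0.59 to 0.78 (median -0.24) in IVF and 0.23 to 1.10 (median 0.46) in NT embryos. The IVF minus AI difference was -0.55 ± 0.14 (adjusted p = 0.00292) and that of NT minus IVF 0.72 ± 0.14 (adjusted p = 0.000147, with 15 of 15 NT embryos over the mean of IVF). PSMA7 differed from this order: its level was low in both IVF and NT embryos. It ran from -0.19 to 0.68 in AI (median 0.24), from -0.93 to 0.21 in IVF (median -0.13) and from -0.69 to 0.14 in NT embryos (median -0.15), with overlap throughout. PSMA7 fell by 0.35 ± 0.10 in IVF against AI embryos (adjusted p = 0.00735), and NT minus IVF was -0.03 ± 0.10 (adjusted p = 0.884). The NT minus AI call of PSMA7 ended on Cy3-sample arrays alone, with the NT embryos labelled 3_ alone and with arrays as deposited, where its sign turned to 0.039. PSMA1 and PSMA5 differed by no more than 0.10 in any of the 3 embryo comparisons, and none of these differences was called.

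Of the constitutive beta subunits, 3 of the 4 tested fell in IVF against AI embryos and 3 rose in NT against IVF embryos. Over all genes 15.6% fell in the first comparison and 13.9% rose in the second. PSMB5 carries the chymotrypsin-like cutting site. Its level was 0.70 to 1.61 (median 1.32) in AI, -1.30 to 1.13 (median 0.69) in IVF, 0.69 to 1.82 (median 1.23) in NT embryos, and -0.08 and 0.02 in the donor cells. AI and NT embryos shared nearly the same range, and the IVF embryos reached far below it. The differences were -0.81 ± 0.17 for IVF minus AI (adjusted p = 0.0003, 15 of 15 under the mean of AI), 0.86 ± 0.17 for NT minus IVF (adjusted p = 0.000147, 15 of 15 over the mean of IVF) and 0.05 ± 0.17 for NT minus AI (adjusted p = 0.911).

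PSMB6, which carries the caspase-like site, had medians of -0.30 in AI, -1.24 in IVF and -0.65 in NT embryos. It fell by 0.77 ± 0.19 in IVF against AI embryos (adjusted p = 0.00149) and was higher by 0.55 ± 0.19 in NT than in IVF embryos (adjusted p = 0.0256). Without IVF embryos 1 and 11 the latter was 0.47 and lost its call. That call was also lost on Cy3-sample arrays alone and with the NT embryos labelled 2_ or 3_ alone. PSMB4, a non-catalytic beta subunit, fell by 0.36 ± 0.10 (IVF minus AI, adjusted p = 0.0055) and rose by 0.38 ± 0.10 (NT minus IVF, adjusted p = 0.00311). Its 2 probes both fell in IVF against AI embryos, by 0.42 and 0.29, while of NT minus IVF 0.56 was called in the first and 0.21 was not in the second. PSMB3 was called in no embryo comparison and lay between -0.19 and 0.02.

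The immunoproteasome subunits replace the constitutive cutting sites in immune and interferon-treated cells. Of the 3 tested, 0 was called in any embryo comparison. Over all genes 29.5% were called for IVF minus AI, 24.2% for NT minus IVF and 8.07% for NT minus AI. A count over 3 genes cannot tell them apart from the constitutive subunits. PSMB9 had the largest differences of these 3, with -0.38 ± 0.16 for NT minus IVF (adjusted p = 0.0745, 95% interval -0.70 to -0.06) and -0.35 ± 0.16 for NT minus AI (adjusted p = 0.173). PSMB8 differed by -0.05 to -0.16 with an error of 0.13. PSMB10 lay at -2.71 to -1.81 in AI, -2.41 to -1.44 in IVF and -3.63 to -1.37 in NT embryos, all overlapping, and at -1.52 and -1.19 in the donor cells.

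In the 19S regulator 3 of 9 subunits fell and 1 rose in IVF against AI embryos. Against IVF embryos, NT embryos had 3 higher and 1 lower. Each of these is 44.4% of the 9, beside 29.5% and 24.2% of all genes. PSMC2, an ATPase of the base ring, was the member whose ranges did not overlap. It ran from 1.14 to 1.86 in AI (median 1.57), from -0.52 to 1.08 in IVF (median 0.84) and from 1.15 to 2.19 in NT embryos (median 1.57), and was 0.69 and 1.34 in the donor cells. Every IVF embryo lay below every AI and every NT embryo. Among all genes, ranges were apart in 0.477% for IVF minus AI and in 0.296% for NT minus IVF, and among the 92 members PSMC2 was the 1 such gene in each. Between NT and AI embryos ranges were apart in 0.0455% of all genes and in 0 members.

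PSMC2 differed by -0.81 ± 0.13 for IVF minus AI (adjusted p = 6.37e-06) and by 0.02 ± 0.13 for NT minus AI (95% interval -0.25 to 0.28). Both probes of PSMC2 were called, at -0.75 and -0.86 for IVF minus AI. IVF embryo 1 was the lowest, at -0.52, and without IVF embryos 1 and 11 the difference was -0.69. PSMC1, another ATPase, fell by 0.42 ± 0.13 in IVF against AI embryos (adjusted p = 0.0142) and was higher by 0.41 ± 0.13 in NT than in IVF embryos (adjusted p = 0.016). The first call of PSMC1 was lost with arrays as deposited and on Cy5-sample arrays alone. The second was lost on Cy3-sample arrays alone and with the NT embryos labelled 2_ alone.

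PSMC4, the remaining ATPase measured, had another order. It ran from -1.65 to 0.45 in AI, from -0.91 to 1.64 in IVF and from -0.19 to 1.15 in the 14 NT embryos with a value, with wide overlap. PSMC4 rose by 0.66 ± 0.21 in NT against AI embryos (adjusted p = 0.043), a call that ended with either dye orientation alone, with values from either dye orientation, with arrays scaled to a common spread, and with the NT embryos labelled 2_ or 3_ alone.

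Among the non-ATPase subunits PSMD13 and PSMD1 went opposite ways. PSMD13 ran from -0.29 to 0.39 in AI (median -0.01), from -0.70 to -0.16 in IVF (median -0.53) and from -0.36 to 0.01 in NT embryos (median -0.21). Its spread was small, with an SD of 0.22, 0.18 and 0.12, and the NT embryos lay between the others. It fell by 0.47 ± 0.08 in IVF against AI embryos (adjusted p = 7.52e-06), was higher by 0.27 ± 0.08 in NT than in IVF embryos (adjusted p = 0.00773), and NT minus AI was -0.21 ± 0.08 (adjusted p = 0.0889). The NT minus IVF call of PSMD13 was lost on Cy5-sample arrays alone and with the NT embryos labelled 2_ alone.

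PSMD1, a scaffold of the base that binds ubiquitin receptors, was low in AI embryos. It ran from -0.18 to 0.98 (median 0.12) in AI, 0.38 to 1.04 (median 0.76) in IVF and -0.16 to 1.17 (median 0.71) in NT embryos. The difference was 0.50 ± 0.11 for IVF minus AI (adjusted p = 0.000612, 15 of 15 over the mean of AI) and 0.41 ± 0.11 for NT minus AI (adjusted p = 0.0167, 14 of 15). Both calls of PSMD1 were lost on Cy5-sample arrays alone, and the second also with the NT embryos labelled 2_ alone. PSMD5, an assembly chaperone of the base, was lower by 0.43 ± 0.13 in NT than in IVF embryos (adjusted p = 0.0126). The PSMD5 call rested on 1 of its 2 probes (-0.73, against -0.13 in the other). PSMD7, PSMD8 and PSMD9 were called in no embryo comparison, and PSMD7 came nearest with 0.37 ± 0.13 for NT minus AI (adjusted p = 0.065).

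The 2 activators went opposite ways in IVF against AI embryos, PSME4 up and PSME1 down. PSME4 (PA200) is a cap that opens the core without ubiquitin and is known for the breakdown of acetylated histones. It ran from 1.58 to 2.78 in AI (median 2.01), from 2.40 to 3.34 in IVF (median 2.90) and from 1.37 to 2.99 in NT embryos (median 2.30), and was 0.38 and 1.70 in the donor cells. IVF embryos had the highest median, with overlap with both other kinds. PSME4 rose by 0.86 ± 0.14 in IVF against AI embryos (adjusted p = 5.94e-06, 15 of 15 over the mean of AI), a 1.82-fold change, and NT minus IVF was -0.62 ± 0.14 (adjusted p = 0.000659, 14 of 15 under the mean of IVF). The second call ended with arrays as deposited.

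PSME1, a subunit of the interferon-responsive cap PA28, fell by 0.58 ± 0.17 in IVF against AI embryos (adjusted p = 0.00814), a call lost on uncentred arrays, on Cy3-sample arrays alone and without the AI embryos labelled H. PSMG1, a chaperone of core assembly, was low in AI embryos like PSMD1, at -1.0 to 0.48 against -0.06 to 0.88 in IVF and -0.09 to 0.65 in NT embryos. It rose by 0.56 ± 0.12 in IVF against AI embryos (adjusted p = 0.000364, 15 of 15). The inhibitor PSMF1 (0.26 ± 0.13 for IVF minus AI, adjusted p = 0.128) and the chaperone PSMG4 were not called. PSMG4 had values in only 7 AI, 10 IVF and 9 NT embryos.

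**Figure D3:**
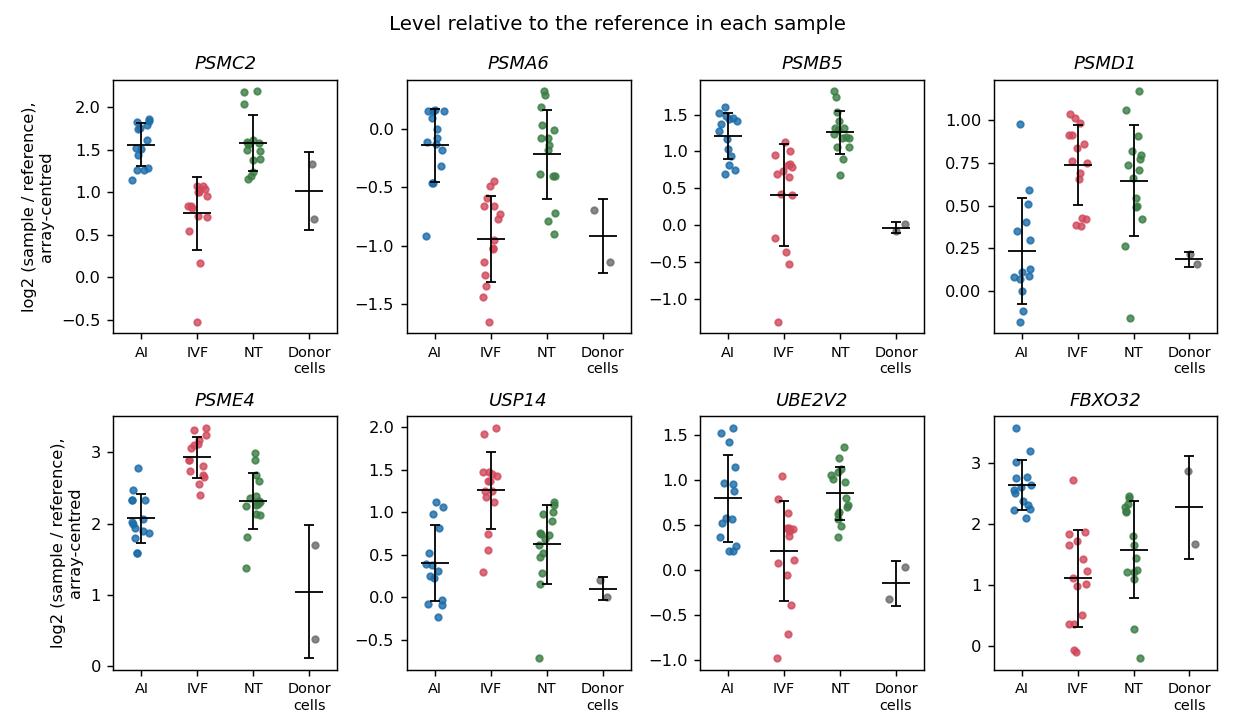
Level (y axis, log2 of sample over reference, array-centred, own scale in each panel) of 8 genes in every AI, IVF and NT embryo and both donor cell samples. Points are samples, and the bar and whiskers give the group mean and SD. For PSMC2 every IVF point lies below 1.08 and every AI and NT point above 1.14, whereas for PSME4 and USP14 the IVF mean is the highest of the 3 and the points of the 3 kinds overlap.

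The plot of 8 genes in every sample sets 3 subunits that were low in IVF embryos (PSMC2, PSMA6, PSMB5) and UBE2V2 beside PSME4 and USP14, which had their highest mean there. PSMD1 and FBXO32 in the same plot differ between AI embryos and both other kinds.

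Of the 3 activating enzymes none was called. UBA1, the main E1 for ubiquitin, differed by 0.42 ± 0.18 for IVF minus AI (adjusted p = 0.0764) and by 0.42 ± 0.18 for NT minus AI (adjusted p = 0.15). UBA2, of the SUMO pathway, and UBA3, of the NEDD8 pathway, differed by -0.08 to 0.26.

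Of the 20 conjugating enzymes 1 rose and 1 fell in IVF against AI embryos. In NT against IVF embryos 1 was higher and 2 were lower, and between NT and AI embryos 0 was called. These are 10%, 15% and 0% of the 20, beside 29.5%, 24.2% and 8.07% of all genes. UBE2V2 is a partner of UBE2N in making lysine-63 chains that serve in DNA repair signalling. Like 8 of the 21 subunits it was called lower in IVF than in AI and higher in NT than in IVF embryos, with 0.21 to 1.58 (median 0.73) in AI, -0.98 to 1.05 (median 0.43) in IVF and 0.37 to 1.37 (median 0.81) in NT embryos. UBE2V2 fell by 0.59 ± 0.17 in IVF against AI embryos (adjusted p = 0.00586) and NT minus IVF was 0.64 ± 0.16 (adjusted p = 0.0028, 15 of 15 over the mean of IVF). For UBE2N itself the 3 differences were 0.13, 0.22 and 0.35 (IVF minus AI, NT minus IVF, NT minus AI), none called.

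UBE2B, the human RAD6B, an E2 that acts on histone H2B and PCNA, went the other way. It ran from -1.49 to -0.22 in AI, from -2.27 to 0.77 in IVF and from -1.71 to -0.25 in NT embryos, with the widest spread in IVF. It rose by 0.57 ± 0.20 in IVF against AI embryos (adjusted p = 0.0232), and 1 of its 2 probes carried that call (0.88, against 0.26). UBE2D2, a broadly acting E2, was lower by 0.35 ± 0.13 in NT than in IVF embryos (adjusted p = 0.0404). With arrays as deposited its sign turned to 0.035.

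Of the 4 ligases of the HECT and U-box type, UBE3A was called. UBE3A, the Angelman syndrome ligase, lay at 0.37 to 1.73 (median 0.93) in AI, 0.67 to 2.02 (median 1.16) in IVF and -0.29 to 1.30 (median 0.61) in NT embryos, overlapping throughout. It was lower by 0.65 ± 0.14 in NT than in IVF embryos (adjusted p = 0.000698, 14 of 15 under the mean of IVF), a call lost with arrays as deposited and with the NT embryos labelled 3_ alone. UBE4B, a U-box chain-elongation factor, differed by at most 0.01 between the kinds of embryo, with a 95% interval of -0.17 to 0.15 for NT minus AI. UBE3B and UBE4A were not called, and UBE4A had wide errors (-0.60 ± 0.33 for NT minus IVF, adjusted p = 0.179).

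Among the 3 cullins CUL4A was called for IVF minus AI (0.26 ± 0.10, adjusted p = 0.0389), but its 4 probes disagreed. Of these, 3 probes were higher in IVF than in AI embryos (0.66, 0.53 and 0.48) and 1 was lower (-0.62, adjusted p = 0.00533), each past the threshold. For NT minus IVF 1 probe of CUL4A was called at -0.65 and another at 0.47. The gene average of CUL4A is therefore uncertain, and so is that of the E2 UBE2R2, whose 2 probes were called at 0.77 and -0.42 for IVF minus AI. CUL2 was not called (0.24 ± 0.19 for IVF minus AI, adjusted p = 0.351). CUL1, the scaffold of SCF ligases, differed by -0.06 to -0.01, with 17.4% of its cells on ratios of the whole numbers 1 to 4, which marks weak spots, against 3.11% over all cells.

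An F-box receptor had the largest called difference of a member between kinds of embryo. FBXO32 (atrogin-1), an F-box protein best known from muscle wasting, ran from 2.10 to 3.57 in AI (median 2.57), from -0.10 to 2.71 in IVF (median 1.10) and from -0.21 to 2.45 in NT embryos (median 1.66), and was 1.67 and 2.87 in the donor cells. AI embryos were high, and both other kinds were low and variable, with an SD of 0.79 in each against 0.41 in AI. FBXO32 fell by 1.53 ± 0.25 in IVF against AI embryos (adjusted p = 7.93e-06, 14 of 15 under the mean of AI), a 2.88-fold change, and by 1.06 ± 0.25 in NT against AI embryos (adjusted p = 0.00505, 15 of 15). On Cy5-sample arrays alone the first call was lost, and on uncentred arrays the second.

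FBXW11, the substrate receptor for beta-catenin and I-kappa-B, was higher in IVF than in AI embryos by 0.56 ± 0.16 (adjusted p = 0.0061) and lower in NT than in IVF embryos by 0.52 ± 0.16 (adjusted p = 0.0111, 15 of 15 under the mean of IVF). Both calls of FBXW11 were lost on Cy5-sample arrays alone. The second was also lost with arrays as deposited and with the NT embryos labelled 2_ or 3_ alone. FBXO3 was called in the same 2 directions as UBE2V2, at -0.61 ± 0.17 for IVF minus AI (adjusted p = 0.00588) and 0.45 ± 0.17 for NT minus IVF (adjusted p = 0.0466). Without IVF embryos 1 and 11 the latter was 0.28 (adjusted p = 0.187), and IVF embryo 1 was its lowest value, at -0.67. The NT minus IVF call of FBXO3 was also lost with quantile normalisation, with either dye orientation alone and in a fit of only the 2 groups. It was lost with the NT embryos labelled 2_ or 3_ alone as well. FBXO30 (0.59 ± 0.17, 15 of 15 over the mean of AI) and FBXL6 (0.36 ± 0.10) also rose in IVF against AI embryos, with adjusted p of 0.00638 and 0.00595.

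**Figure D4:**
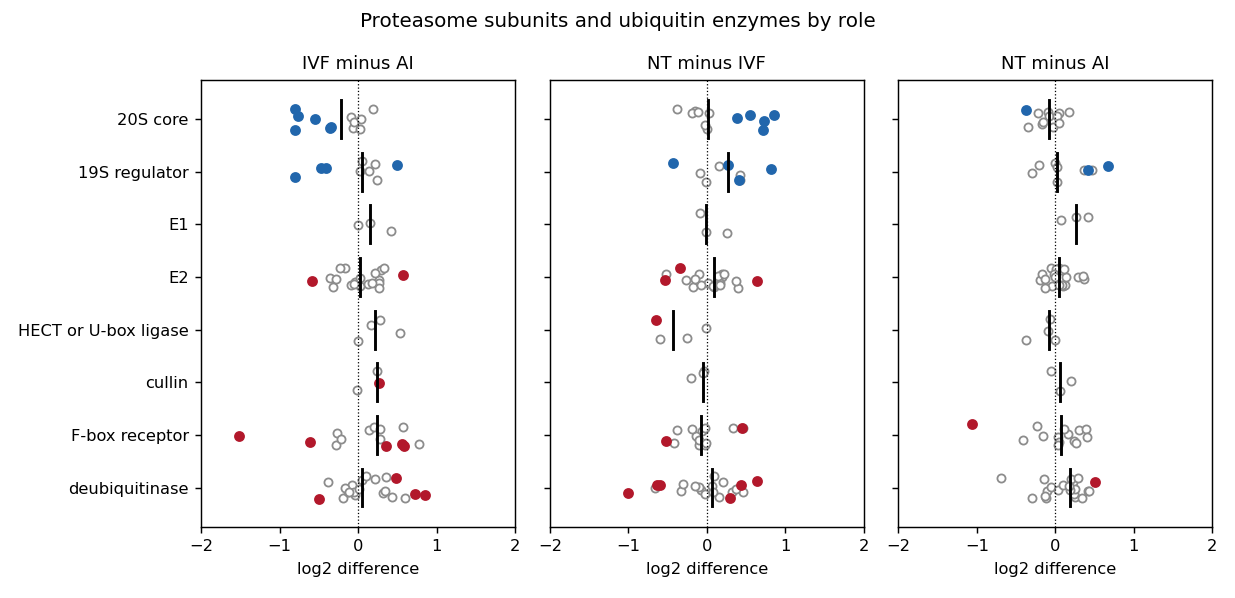
Difference in level (x axis, log2) of the 21 tested proteasome subunits and 65 ubiquitin enzymes, by role, in IVF minus AI, NT minus IVF and NT minus AI. Each point is a gene, filled points passed the limma threshold (blue in the proteasome, red among the enzymes), and the black bar is the median of the role. The filled points of the 20S core all lie left of 0 in the first panel and right of 0 in the second, while those of the deubiquitinases lie on both sides.

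Of the 21 deubiquitinases 3 rose and 1 fell in IVF against AI embryos. In NT against IVF embryos 3 were higher and 3 lower, and in NT against AI embryos 1 rose. These are 19.0%, 28.6% and 4.76% of the 21, beside 29.5%, 24.2% and 8.07% of all genes. The plot by role shows called deubiquitinases on both sides of 0 where the called core subunits lie on the same side. USP14 works on the proteasome itself, where it trims ubiquitin from the bound substrate. It ran from -0.23 to 1.13 in AI (median 0.34), from 0.30 to 1.99 in IVF (median 1.36) and from -0.71 to 1.13 in NT embryos (median 0.73). USP14 was thus high in IVF embryos, with overlap.

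USP14 rose by 0.86 ± 0.17 in IVF against AI embryos (adjusted p = 9.23e-05) and NT minus IVF was -0.63 ± 0.16 (adjusted p = 0.00304, 15 of 15 under the mean of IVF). The NT minus IVF call was lost on uncentred arrays and on Cy5-sample arrays alone. USP10, which stabilises p53, followed with 0.48 ± 0.15 for IVF minus AI (adjusted p = 0.0114) and -0.60 ± 0.15 for NT minus IVF (adjusted p = 0.00185), where both of its probes were called, at -0.54 and -0.66. USP24 was high in IVF embryos, at -1.62 to 0.05 against -2.65 to -0.44 in AI embryos, a rise of 0.72 ± 0.18 (adjusted p = 0.00186).

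USP16, a histone H2A deubiquitinase, fell by 0.51 ± 0.17 in IVF against AI embryos (adjusted p = 0.0213). Without IVF embryos 1 and 11 this was -0.40 and lost its call (adjusted p = 0.0574). USP2 (0.64 ± 0.19), USP11 (0.43 ± 0.14) and USP9X (0.29 ± 0.10) were higher in NT than in IVF embryos, with adjusted p of 0.0108, 0.0187 and 0.0317. USP9X is needed in preimplantation mouse embryos. It had 3 probes, of which 1 carried the call (0.88, against 0.11 and -0.12).

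USP42 was lower in NT than in IVF embryos by 1.01 ± 0.32 (adjusted p = 0.0193), with values in 10 of 15 NT embryos and with 20.5% of its cells on ratios of small whole numbers. USP47, which takes ubiquitin off DNA polymerase beta, rose by 0.51 ± 0.14 in NT against AI embryos (adjusted p = 0.0211, 12 of 15 NT embryos), and neither of its 2 probes alone was called (0.53 and 0.48). OTUB1 was among the least variable members, with an SD of 0.10 in AI embryos and differences of -0.04 to -0.11.

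The NT embryos of the 2 label series were also compared with the IVF embryos separately. With the 8 labelled 2_ alone 4 subunits were called (4 higher, 0 lower), which were PSMA4, PSMA6, PSMB5 and PSMC2, and with the 7 labelled 3_ alone 7 were called (7 higher, 0 lower). Of the enzymes 8 and 7 were called. Over all genes 739 of 4399 (403 higher, 336 lower) were called with those labelled 2_ alone. With those labelled 3_ alone 696 of 4396 (446 higher, 250 lower) were called. Of the 16 trophectoderm markers 6 were lower and 0 higher in NT than in IVF embryos (37.5% called, beside 24.2% of all genes). Against AI embryos 4 were lower and 0 higher in NT embryos (25%, beside 8.07% of all genes). TFAP2A was among the lower ones in both (-0.75 and -1.42). In IVF against AI embryos 2 of these markers rose and 1 fell (18.75% called, beside 29.5% of all genes). Of the fibroblast and matrix markers 3 of 11 were higher and 1 lower in NT than in IVF embryos (36.4% called, beside 24.2% of all genes). Of 4 blood cell markers 0 was called. Of the 2 inner cell mass markers 1 was higher and 1 lower in NT than in IVF embryos. For IVF minus AI 1 was higher and 0 lower. Their mean level was 1.32 and 1.55 in the donor cells, against means of 0.62 in AI, 0.67 in IVF and 0.72 in NT embryos. The part of the cell types in the differences of the subunits was not tested.

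Against the donor cells the conjugating enzymes were called in both directions. Of the 20 E2 genes 11 were called for NT minus donor cells (5 higher, 6 lower), where 35.4% of all genes were called (20.1% higher, 15.4% lower), and 11 for AI minus donor cells (5 higher, 6 lower), where 37% of all genes were called (20.4% higher, 16.6% lower). For IVF minus donor cells 8 were called (3 higher, 5 lower), against 34.3% of all genes (18.5% higher, 15.8% lower). Of the 21 subunits 6 were higher and 2 lower for NT, 8 higher and 1 lower for AI, and 2 higher and 1 lower for IVF embryos. All 3 comparisons rest on the same 2 donor samples. Their errors and p-values use 1 spread per gene, estimated over all 46 samples. That spread comes mostly from the embryos and says little about the spread between donor samples.

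**Figure D5:**
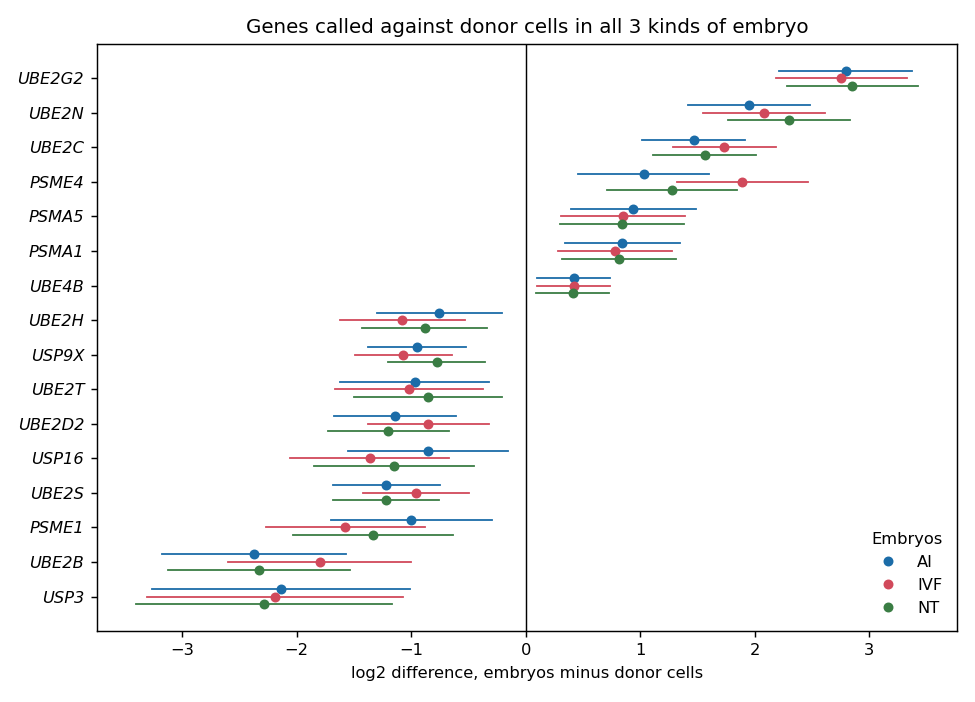
Difference in level between embryos and donor cells (x axis, log2; point) with its 95% confidence interval (line) for the 16 members called in all 3 comparisons, with AI in blue, IVF in red and NT in green. The 7 genes right of 0 are led by UBE2G2 and the 9 genes left of 0 end with USP3.

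UBE2G2, the E2 of the degradation of misfolded proteins at the endoplasmic reticulum, ran from 0.88 to 1.86 in AI, 0.60 to 1.79 in IVF and 0.50 to 1.97 in NT embryos, and was -2.11 and -0.61 in the donor cells. Every embryo lay above both donor samples, whose SD was 1.06. The difference was 2.79 ± 0.29 for AI, 2.76 ± 0.29 for IVF and 2.85 ± 0.29 for NT minus donor cells (adjusted p of 3.2e-11, 5e-11 and 1.66e-11), and between the kinds of embryo it was at most 0.10. UBE2N was higher than in donor cells by 1.95 to 2.30 and UBE2C by 1.47 to 1.74. UBE2C serves the anaphase-promoting complex in mitosis, and its level was -1.58 and -1.44 in the donor cells. The plot of genes called in all 3 kinds of embryo shows these 3 E2 genes with PSME4, PSMA1, PSMA5 and UBE4B on the side of the embryos.

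UBE2B was lower than in donor cells by 2.37 ± 0.40 in AI, 1.80 ± 0.40 in IVF and 2.33 ± 0.40 in NT embryos, with 1.12 and 1.56 in the donor cells and no embryo above 0.77. USP3, a deubiquitinase of histones H2A and gamma-H2AX, had differences of -2.14 ± 0.56, -2.19 ± 0.56 and -2.28 ± 0.56 (AI, IVF, NT; adjusted p of 0.00186, 0.00153 and 0.000913), calls that were lost without donor sample 9. UBE2S, which extends chains on substrates of the anaphase-promoting complex, was lower by 0.96 to 1.22 in size, and UBE2D2 by 0.85 to 1.20. UBE2T, the E2 of the Fanconi anaemia pathway, and UBE2H were lower too. UBE2K was higher in NT and AI embryos (1.40 ± 0.42 and 1.28 ± 0.42), UBE2D4 lower in both (-1.69 ± 0.52 and -1.50 ± 0.52), and FBXO11 higher in IVF embryos (1.50 ± 0.53, adjusted p = 0.0222). In UBE2H a single probe carried the calls (for NT -1.64, against -0.12 in the other).

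Of the proteasome genes PSMB5 was higher in AI (1.24 ± 0.35) and NT embryos (1.29 ± 0.35) than in donor cells, with every embryo of these kinds above both donor samples. PSMA1 and PSMA5 were higher in all 3 kinds, by 0.78 to 0.94. PSMB10 was lower in AI (-0.85 ± 0.31) and NT embryos (-0.81 ± 0.31), and PSMB8 higher in AI embryos (0.67 ± 0.27). PSME1 was lower than in donor cells by 1.00 to 1.58 in size. With only 2 donor samples few of these calls held when either was left out: 6 of 28 for NT, 7 of 31 for AI and 8 of 20 for IVF embryos. Those that held for NT embryos were UBE2B, UBE2C, UBE2D2, UBE2G2, UBE2N and UBE2S. Without donor sample 9, 0 of the 8 subunits called for NT and 2 of the 9 called for AI embryos (PSMA1 and PSMA7) kept their call, and 1 further subunit was called in each. Without donor sample 8, 4 of 8 and 5 of 9 kept it.

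Other genes of the pathway, outside the symbol rule, were taken from a list of which 52 were tested. Of these 10 rose and 7 fell in IVF against AI embryos, 8 were higher and 8 lower in NT than in IVF embryos, and 0 rose and 1 fell in NT against AI embryos. These are 32.7%, 30.8% and 1.92% of the list, beside 29.5%, 24.2% and 8.07% of all genes. MYLIP, a ligase of the LDL receptor, was -2.09 ± 0.88 in AI, -0.87 ± 0.50 in IVF and -3.00 ± 1.05 in NT embryos (SD, n of 14, 15 and 15). MYLIP was lower in NT than in IVF embryos by 2.13 ± 0.29 (adjusted p = 4.77e-07) and lower in NT than in AI embryos by 0.91 ± 0.30 (adjusted p = 0.0471). JOSD1, a deubiquitinase, rose by 1.19 ± 0.17 in IVF against AI embryos (adjusted p = 8.93e-07) and NEDD4, a HECT ligase, by 1.11 ± 0.40 (adjusted p = 0.0333).

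Of 13 genes of the SCF core, neddylation and the COP9 signalosome 4 were called for IVF minus AI (30.8%, beside 29.5% of all genes), 1 higher and 3 lower. For NT minus IVF 6 were called (46.2%, beside 24.2% of all genes), 5 higher and 1 lower. CAND1, the exchange factor that frees cullins for a new substrate receptor, rose by 0.63 ± 0.10 in IVF against AI embryos (adjusted p = 5.49e-06) and NT minus IVF was -0.65 ± 0.10 (adjusted p = 3.75e-06). COPS7A and COPS5, subunits of the COP9 signalosome that takes NEDD8 off cullins, went the other way, at -0.76 ± 0.14 and -0.66 ± 0.15 for IVF minus AI and 0.67 ± 0.14 and 0.40 ± 0.15 for NT minus IVF. GPS1, also of the signalosome, was 0.64 ± 0.24 higher in NT than in IVF embryos (adjusted p = 0.0445), and ANAPC16, of the anaphase-promoting complex, fell by 0.76 ± 0.19 in IVF against AI embryos (adjusted p = 0.00209). SYVN1, a ligase of the endoplasmic reticulum, was lower in NT than in IVF embryos (-0.68 ± 0.12). NFE2L2, a transcription factor of the oxidative stress response, was 0.51 ± 0.15 for IVF minus AI and -0.64 ± 0.15 for NT minus IVF, and ADRM1, a ubiquitin receptor of the 19S, 0.40 ± 0.08 and -0.39 ± 0.08. NFE2L1, the related factor known to raise subunit transcription when the proteasome is inhibited, was called in no embryo comparison.

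Within each kind of embryo the subunits varied less than the enzymes. The median SD of the 21 subunits was 0.31 in AI, 0.39 in IVF and 0.33 in NT embryos, that of the 65 enzymes 0.45, 0.48 and 0.43, and that of all genes 0.44, 0.45 and 0.41. Some enzymes had many weak spots, with the highest shares of cells on ratios of small whole numbers in OTUD3 (25.4%) and FBXO17 (21.7%). Among the subunits the highest share was 5.08%, in PSMC4. The part of weak spots in the spread was not tested. Across embryos of a kind, pairs of subunits were hardly correlated, with a median r of -0.02 in AI (n = 14), 0.04 in IVF (n = 15) and 0.08 in NT embryos (n = 15), and all genes had 0.00 in each. The 12 core subunits in NT embryos had the highest median, 0.19, with 69.7% of their 66 pairs above 0 (all genes 50.2%). In AI and IVF embryos the core had medians of -0.01 and 0.01, with 50% of pairs above 0 in each. The 19S subunits in NT embryos had a median of -0.10, with 38.9% of pairs above 0. These values are a description, and subunits of an embryo share its arrays.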

How the data were processed

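The authors deposited 1 log2 ratio between both dyes for each spot, and intensities were not used here. Per the labels' protocols, RNA was extracted with Trizol and amplified linearly in 3 rounds for samples and 2 for the reference, and dyes were coupled to aminoallyl cDNA. Background correction and normalisation are not given in the sources used here. A fill value of 16.61 in 2657 cells was set to missing. Each of 92 arrays was centred on its median, and Cy3-sample arrays were turned in sign. Duplicate spots were averaged, or the remaining spot was used where the other was missing. The 2 arrays of a sample were averaged only where both had a value. Probes needed values in 50% of each kind of embryo and in both donor samples (7992 of 8208), and probes of a gene were averaged (4398 genes). Symbols came from GEO's platform annotation; all 116 member probes matched RefSeq by Entrez ID and no symbol changed.

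All 46 samples entered a limma 3.58.1 model of group means in R 4.3.3, with eBayes, 2-sided tests and Benjamini-Hochberg adjustment over all genes (threshold 0.05). The scripts were tested on simulated data. The members and gene lists were chosen with earlier results of these data known. Named genes are the members with the largest called changes per comparison, those of smallest p per role, genes whose probes disagree and a few set beforehand, and the pathway genes with the largest called changes; CAND1, COPS5, NFE2L2, ADRM1, NFE2L1 and TFAP2A fall outside that rule and were named after their values were seen. Embryos count as the replicates; the labels do not tell whether the donor samples are separate cultures. No promoter or protein sequences were used here, so that the planned motif search was not run. The number of arrays limits the precision.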

Additional observations from a re-analysis of the deposited data

How the results depend on the processing

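Of 132 member calls over the 6 comparisons 35 held under every alternative run, and of 53 calls between kinds of embryo 16. These 16 are PSMA6, PSMB5, PSMB6, PSMC2, PSMD13, PSME4, PSMG1, FBXO3, UBE2V2, USP14 and USP24 for IVF minus AI, and PSMA4, PSMA6, PSMB5, PSMC2 and UBE2V2 for NT minus IVF. The alternatives were arrays as deposited, quantile normalisation, a common median absolute deviation, Cy5-sample or Cy3-sample arrays alone, 1 probe per gene, other filters, a fit of only the 2 groups compared, and left-out samples; values with either dye orientation and the omission of IVF embryos 1 and 11 were added after seeing the data.

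Subunit counts moved by over 1.5 times as follows. For NT minus AI, 3 called became 8 with arrays as deposited and 1 with Cy3 alone, with NT embryos labelled 2_ and with those labelled 3_. For NT minus IVF, 9 became 4 with those labelled 2_. For IVF minus AI, 10 became 6 as deposited. For NT minus donor cells, 8 became 4 as deposited and with Cy5 alone and 5 with those labelled 2_, and 1 to 4 without a donor sample. For AI minus donor cells, 9 became 1 as deposited, 2 with Cy5 alone, and 3 to 6 without a donor sample. For IVF minus donor cells, 3 became 1 as deposited, 9 with quantile normalisation and 8 with Cy3 alone. Over all genes 1508 became 1034, 1793 and 1574 in these settings. All genes called for NT minus AI went from 355 to 1997 as deposited, 216 with Cy3 alone, 167 with 2_ and 179 with 3_. Those for NT minus IVF went from 1066 to 739 with 2_, and those for IVF minus AI from 1299 to 698 as deposited. As deposited and with Cy5 alone, 1558 became 1204 and 1399 for NT minus donor cells. For AI minus donor cells 1627 became 1163 and 1385.

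Enzyme counts moved likewise. For NT minus AI, 2 became 35 as deposited, 4 with the common deviation, 5 with Cy5 alone, and 1 with 1 probe per gene and with NT embryos labelled 2_. Over all genes 355 became 1997, 330, 550, 360 and 167 in these settings. For NT minus IVF, 12 became 22 as deposited, 4 with Cy5 alone and 7 with those labelled 3_. All genes called there went from 1066 to 1755, 770 and 696. For IVF minus AI as deposited, all genes called went from 1299 to 698 and the enzymes from 12 to 7. Without a donor sample the counts against donor cells were 8 to 13 for NT (18 in all), 9 to 12 for AI (20) and 9 to 11 for IVF (15). The signs that turned were those of PSMA7 for NT minus AI (0.039 as deposited), UBE2D2 for NT minus IVF (0.035 as deposited) and UBE4B for NT minus donor cells (-0.056 with Cy5 alone). The cause of these changes was not tested.

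AI and IVF embryos share 7 label numbers, which name different embryos. Same-numbered embryos did not deviate together (r of -0.060 to 0.086), so that the number was not taken as a pairing. With the number as a replicate block 10 subunits (1 higher, 9 lower) and 12 enzymes (8 higher, 4 lower) were called for IVF minus AI, as without it.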
